A study of Mus musculus with 8 samples.

Results

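The 34 genes described here take up fatty acids, store them as triglyceride and oxidise them. They were chosen by symbol for these functions, out of the 27998 genes of the count matrices, and all 34 were found. They hold 1 nuclear receptor, 5 genes of fatty acid uptake and activation, 7 of triglyceride synthesis and lipid droplets, 2 that set fuel use (Pdk4 and Angptl4), 3 of the carnitine shuttle, 4 mitochondrial acyl-CoA dehydrogenases, 4 enzymes of the mitochondrial oxidation spiral, 3 of electron transfer, 3 auxiliary enzymes for unsaturated fatty acids and 2 peroxisomal enzymes.

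Enterocytes, the absorptive cells of the small intestine, take up dietary fatty acids and monoglyceride, rebuild triglyceride in the endoplasmic reticulum, and export it in chylomicrons or hold it for a time in lipid droplets. A fatty acid to be burned is first joined to coenzyme A, passed into mitochondria by the carnitine shuttle, and shortened there in a repeated cycle of dehydrogenation, hydration, dehydrogenation and thiolysis. PPARα, the receptor encoded by Ppara, binds fatty acids and activates many genes of both routes, and intestinal stem cells are known to use fatty acid oxidation as well.

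Cells positive for EpCAM, an epithelial surface protein, had been sorted from small intestinal crypts of adult female mice and captured in droplets for single-cell RNA sequencing. The KO mice lacked ieCtnnb1, an enhancer upstream of Ctnnb1 (the gene of β-catenin), deleted by gene editing (Ctnnb1Δi.enh). The mice labelled WT were not plain wild-type animals, since per the study's methods they carried at the H11 locus a reporter in which this enhancer drives LacZ and Cre (H11 i.enh). Both were on a C57BL/6 background, crypts had been separated from villi on a filter, and cells of several animals were pooled. The labels list 4 samples in each group, but the values came as 1 matrix per group with no mark of the animal. Each group is therefore 1 sample, no difference between groups could be tested, and every interval below is a 95% interval that covers counting error only.

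After filtering, 13095 of 15987 WT barcodes and 8658 of 12763 KO barcodes remained, with medians of 6675 and 8691.5 UMIs (unique molecular identifiers, each 1 captured transcript). Of all barcodes, 57 occurred in both matrices. Clusters were named from markers of other genes as crypt base columnar stem cells (CBC-like), transit-amplifying cells (TAC-like), immature and mature enterocytes (imEC-like and mEC-like), Paneth (PC-like), goblet (GC-like), enteroendocrine (EEC-like) and tuft cells (TC-like). The 20 mature enterocyte markers summed to 9663 CPM (the UMIs of a gene scaled to a fixed total per class) in mEC-like cells of the WT matrix and to 9102 CPM in those of the KO matrix, against 704 and 615 CPM in CBC-like cells. In the same mEC-like cells the immature enterocyte markers summed to 16932 and 55199 CPM and the Paneth markers to 53639 and 29169 CPM, so that both differed between the matrices, and their part in the KO to WT ratios was not tested. In imEC-like cells the immature markers summed to less, 16128 and 39432 CPM, and the mature ones to 3350 and 2632 CPM. The 15 transit-amplifying markers were higher in CBC-like (5456 and 4624 CPM) than in TAC-like cells (4085 and 3325 CPM). The 12 stem cell markers were higher in CBC-like cells too, at 2975 and 2582 against 1112 and 1058 CPM. The immature and transit-amplifying lists thus did not peak in the classes of their names. Epcam was read in every class, at 293 CPM or more. KO cells were the deeper ones in each class, with a median of 9306 against 5278 UMIs in mEC-like cells and 17848.5 against 8978 UMIs in CBC-like cells. Another 3073 WT and 3243 KO cells stayed unnamed. Among them, 4 shallow clusters closest to mature enterocytes held 8.80% of the kept WT and 30.5% of the kept KO cells. Ctnnb1 itself had 232 CPM in WT and 140 CPM in KO CBC-like cells, 226 and 126 CPM in mEC-like cells, and 140 and 139 CPM in EEC-like cells.

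Across the 8 classes the genes formed a gradient in CPM along the absorptive lineage, with mature enterocytes at the top and Paneth-like cells at the bottom. The 34 genes together took 1871 CPM in WT CBC-like cells, 2285 CPM in TAC-like, 3537 CPM in imEC-like and 5433 CPM in mEC-like cells. In the KO matrix the same sums were 1835, 2150, 3254 and 4947 CPM. Among the secretory classes, PC-like cells had 434 CPM in WT and 519 CPM in KO, and the GC-like, EEC-like and TC-like classes lay between 1447 and 1554 CPM in WT and between 1709 and 1834 CPM in KO. In WT, mEC-like cells had the highest level of 28 of the 34 genes, and for 19 of these the interval did not touch that of the next class. In KO the same class was highest for 22 genes, 16 of them clear of the next. PC-like cells had the lowest level of 31 genes in WT and 29 in KO.

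**Figure D1:**
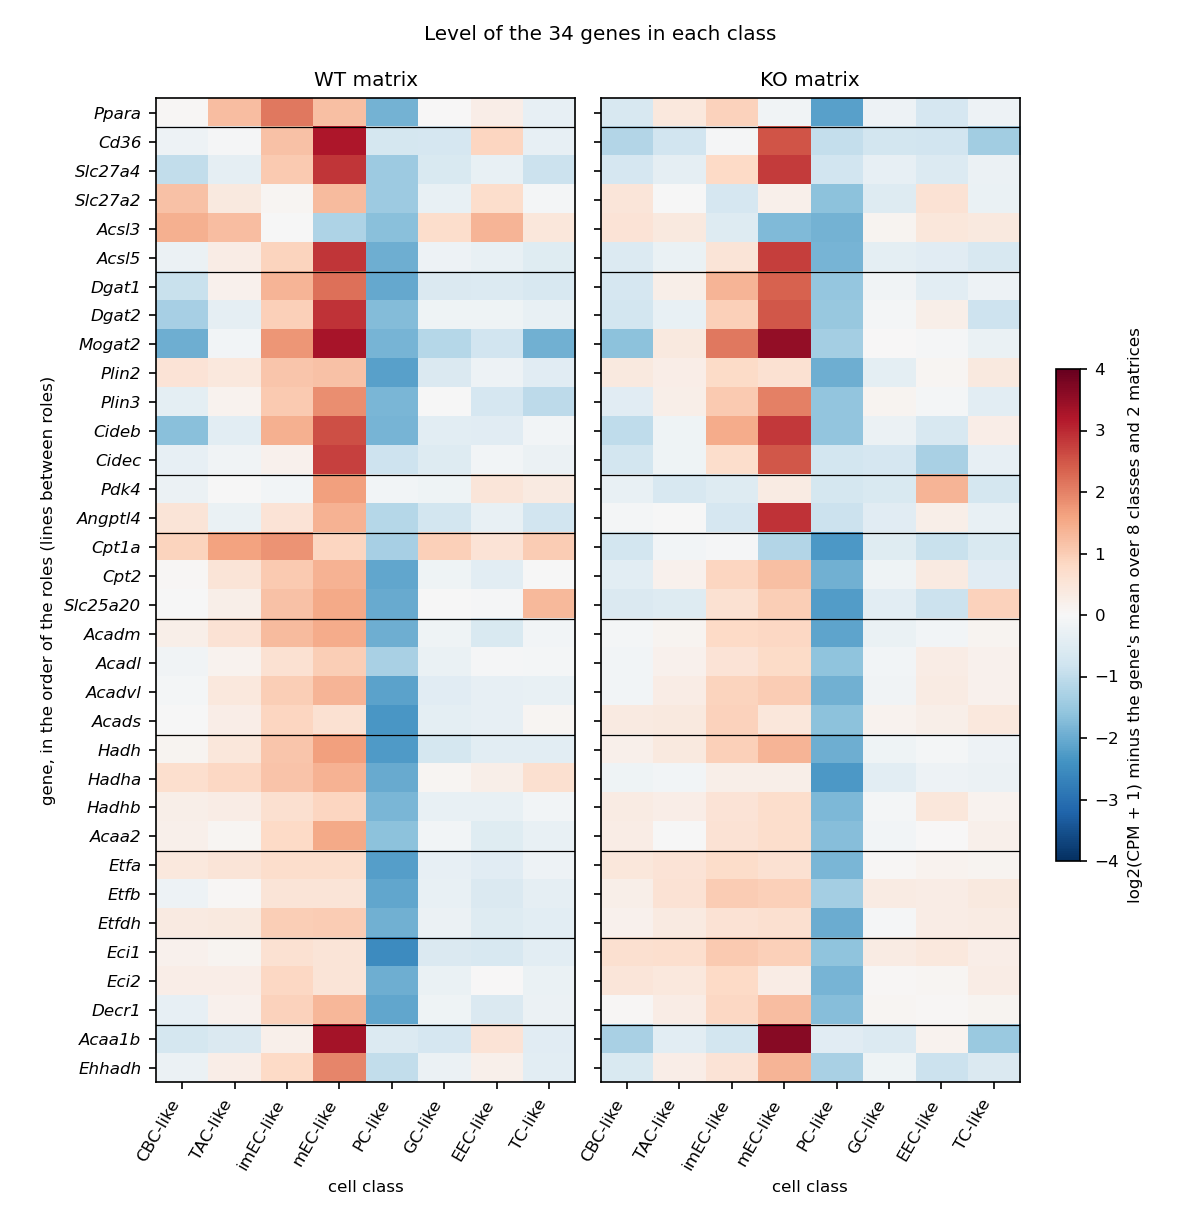
Level of each of the 34 genes (vertical axis, in the order of their roles, with lines between roles) in the 8 cell classes (horizontal axis) of the WT and KO matrices. Colour gives log2(CPM + 1) minus the mean of the gene over 8 classes and both matrices, so that genes are compared with themselves only. The mEC-like column is the warmest and the PC-like column the coldest for most genes in both matrices. Cpt1a is warm in WT outside PC-like cells and pale or cold in KO.

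How far mature enterocytes stood above stem cells was read within each matrix, as the log2 ratio of CPM between mEC-like and CBC-like cells minus the median of that ratio over all genes with at least 50 UMIs (centred ratio). Classes were clustered without these 34 genes, but from the same cells, so the ratios are a description. In WT, 25 of 33 genes with enough UMIs were at least 2-fold higher in mEC-like cells, where 20.6% of all genes were, and 1 was at least 2-fold lower, where 20.9% were. In KO, 20 of 33 were higher, beside 22.7% of all genes, and 1 was lower, beside 22.6%. The median of the 33 genes was 1.68 in WT and 1.56 in KO, where the median of all genes is 0 by construction. The share called higher was above that of all genes in each matrix.

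Storage genes had the largest median ratio of the roles in WT, 4.38, with the 2 peroxisomal genes at 4.14 and in KO above them, at 5.39 against 3.84. The peroxisomal value in KO rests in part on Acaa1b, which had 1 UMI in KO CBC-like cells (8.18, 5.69 to 13.5). Mogat2, which joins monoglyceride and fatty acid to diglyceride in enterocytes, went from 6.29 CPM in WT CBC-like to 277 CPM in WT mEC-like cells, a centred ratio of 5.82 (5.33 to 6.35). Dgat2, which adds the last fatty acid of triglyceride, went from 3.70 to 87.0 CPM (4.91, 4.27 to 5.63). Dgat1, which catalyses the same step and is the main such enzyme of the intestine, went from 61.5 to 539 CPM (3.49, 3.33 to 3.66). The 3 enzymes of triglyceride assembly were thus all well past 2-fold. The lipid droplet protein genes Cideb, which also acts in lipoprotein lipidation, and Cidec, which fuses droplets, had centred ratios of 4.74 (10.4 to 216 CPM) and 4.38 (0.926 to 15.1 CPM). Cidec had 5 UMIs in WT and 3 in KO CBC-like cells, which is why its interval ran from 3.12 to 6.03. Plin3, a droplet coat protein, had 2.65. Plin2, the coat protein of most cell types, had 55.5 CPM in CBC-like and 85.7 CPM in mEC-like cells and at 0.98 was the 1 gene of its role under 2-fold.

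Uptake and activation genes were split. Cd36, a fatty acid translocase of the apical membrane, had 1.30 CPM in WT CBC-like and 23.5 CPM in WT mEC-like cells (4.54, 3.47 to 5.87). Slc27a4, the fatty acid transport protein of enterocytes, and Acsl5, an acyl-CoA synthetase, had centred ratios of 4.29 and 3.48. Acsl3, the synthetase known to sit on nascent lipid droplets, went the other way, from 41.7 CPM in CBC-like to 5.69 CPM in mEC-like cells (-2.51, -3.00 to -2.06), and was likewise lower in KO at -2.17. It was the 1 member at least 2-fold lower in mature enterocytes. Slc27a2, a transporter that also activates very long chains, differed little, with 42.8 and 45.8 CPM (0.46).

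The oxidation genes were higher in mature enterocytes by smaller ratios. The 4 dehydrogenases that open the cycle for chains of different length, Acadm, Acadl, Acadvl and Acads, lay between 1.0 and 1.79 in WT. In the spiral, Hadh had 1.89, Acaa2 1.68, Hadha 1.06 and Hadhb 0.96, and the electron transfer genes Etfa, Etfb and Etfdh lay between 0.65 and 1.07. Of the auxiliary enzymes, Decr1 had 2.06 while the isomerase genes Eci1 and Eci2 had 0.73 and 0.62. Acaa1b, a thiolase, went from 4 UMIs (0.741 CPM) in WT CBC-like to 232 UMIs (27.5 CPM) in WT mEC-like cells (5.57, 4.20 to 7.46), and Ehhadh, the bifunctional enzyme, from 6.29 to 31.9 CPM (2.70). Reads of Acaa1b and its near-identical neighbour Acaa1a may have been split by the counting.

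**Figure D2:**
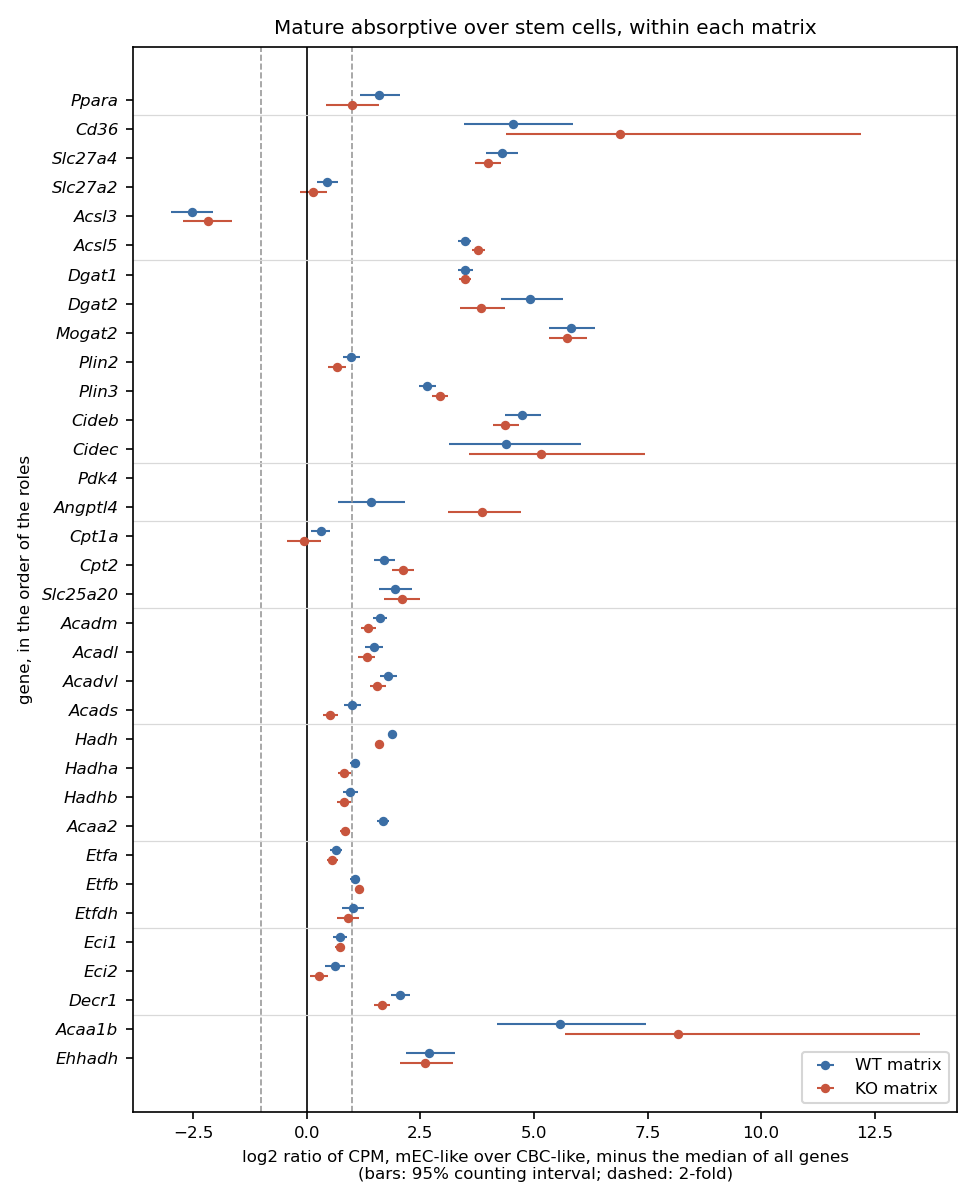
Centred log2 ratio of CPM between mEC-like and CBC-like cells (horizontal axis) for each gene (vertical axis, in the order of the roles), in the WT matrix (blue) and the KO matrix (red). Points are the ratios, bars their 95% counting intervals, dashed lines 2-fold, and Pdk4 had too few UMIs. Mogat2 and Acaa1b lie furthest right in WT at 5.82 and 5.57, Acsl3 lies alone on the left, and Cpt1a lies at 0.30 in WT and -0.06 in KO.

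The entry step into mitochondria did not follow the gradient. Cpt1a, the carnitine palmitoyltransferase of the outer mitochondrial membrane that limits the rate of entry (chr19:3322334-3385733, plus strand, mouse build GRCm38), was highest in WT imEC-like cells at 105 CPM and TAC-like cells at 91.7 CPM, 2 classes whose intervals overlapped. TC-like (60.5 CPM), GC-like (58.4 CPM), CBC-like (55.7 CPM), mEC-like (53.7 CPM) and EEC-like cells (43.7 CPM) formed a lower group, and PC-like cells had 11.1 CPM. Ppara (chr15:85734983-85802819, plus strand) had a similar peak in imEC-like cells, at 45.7 CPM in WT and 19.3 CPM in KO, each clear of TAC-like cells at 24.7 and 13.4 CPM. Cpt2, which rebuilds acyl-CoA inside the mitochondrion, and Slc25a20, the carnitine carrier, were higher along the lineage in WT, with centred ratios of 1.71 and 1.95 between mEC-like and CBC-like cells.

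Between the genotypes the 34 genes did not move as a block. In each class the log2 ratio of KO to WT CPM was centred on the median of all genes with at least 50 UMIs, which without centring was -0.41 in mEC-like and -0.33 in CBC-like cells. In mEC-like cells 1 of 33 genes was at least 2-fold higher in KO, where 5.77% of all genes were, and 2 were at least 2-fold lower, where 6.84% were. The median of the 33 genes was 0.19, but its sign rested on the scaling. With centring 21 of the 33 ratios lay above 0, without centring 8 did, and after centring on a fit to transcript length 15 did. In CBC-like cells 2 of 29 genes were higher, beside 2.95% of all genes, and 1 was lower, beside 6.31%. These counts are near the shares of all genes.

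The other classes gave equally few calls. TAC-like cells had 0 of 30 genes higher (all genes 3.6%) and 1 lower (5.09%), and imEC-like cells 0 of 29 higher (3.76%) and 1 lower (6.13%). In PC-like cells 1 of 33 was higher (3.96%) and 1 lower (4.78%), and in GC-like cells 2 of 29 were higher (6.65%) and 1 lower (7.02%). EEC-like cells had 1 of 25 higher (7.96%) and 1 lower (11.1%), and TC-like cells 0 of 22 higher (3.31%) and 1 lower (13%). The lower gene was Cpt1a in each of these classes and in CBC-like cells, and in mEC-like cells the lower genes were Cpt1a and Ppara.

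**Figure D3:**
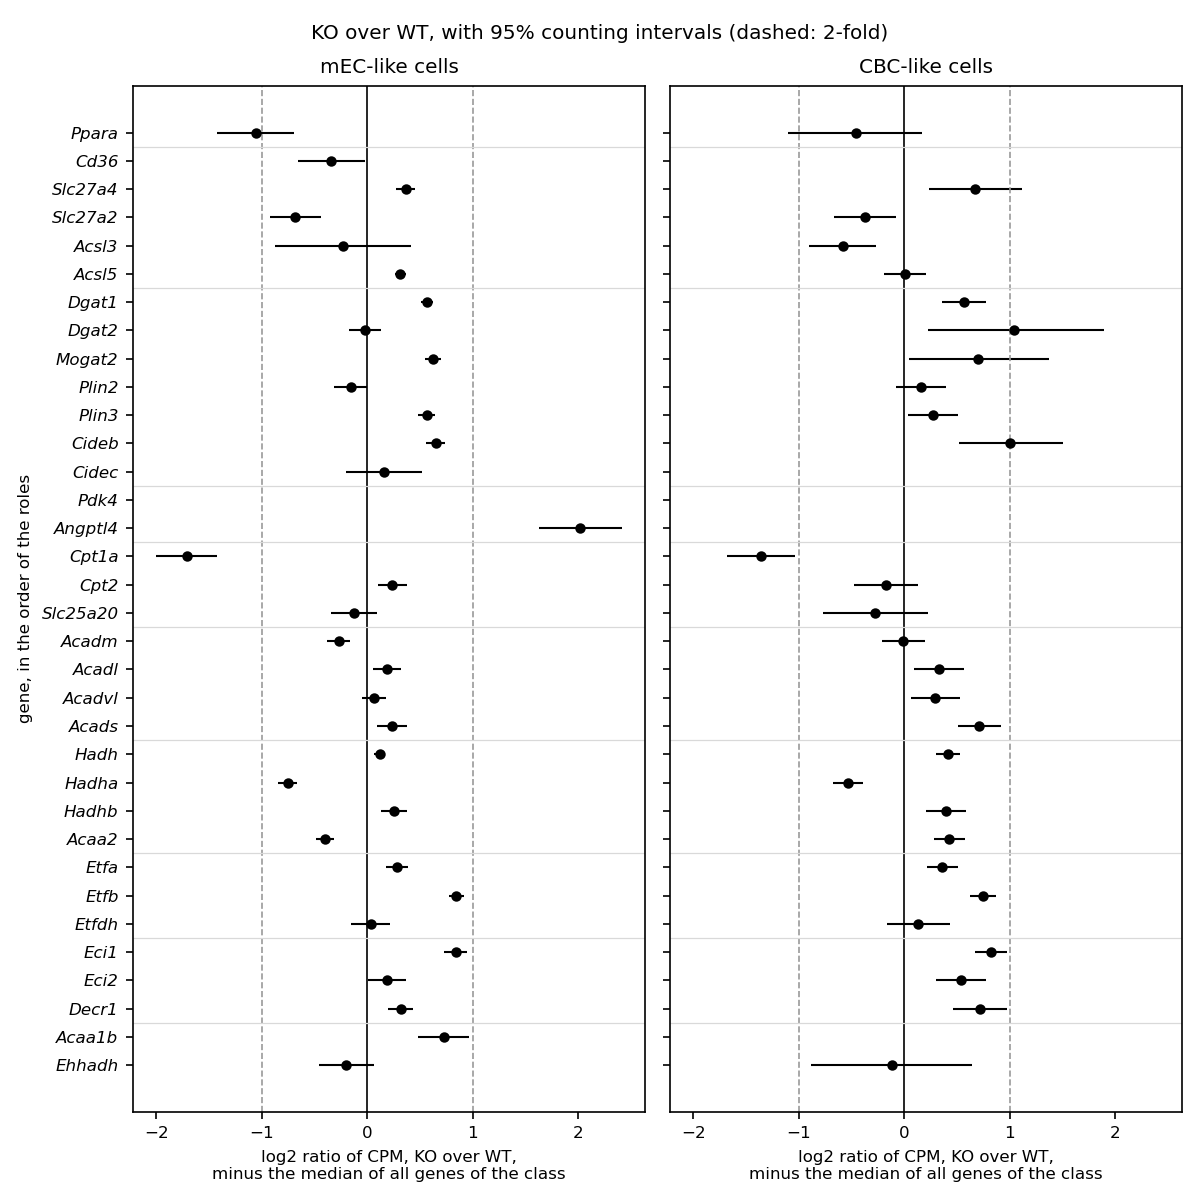
Centred log2 ratio of KO to WT CPM (horizontal axis) for each gene (vertical axis, in the order of the roles), in mEC-like cells (left) and CBC-like cells (right). Points are the ratios, bars their 95% counting intervals and dashed lines 2-fold, and genes with under 50 UMIs have no point. Angptl4 lies at 2.02 and Cpt1a at -1.71 in mEC-like cells, and most other genes lie within 1 of 0.

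Cpt1a was the member at least 2-fold lower in KO in every class after centring. Its WT levels of 55.7, 91.7, 105, 53.7, 11.1, 58.4, 43.7 and 60.5 CPM in CBC-like, TAC-like, imEC-like, mEC-like, PC-like, GC-like, EEC-like and TC-like cells stood against KO levels of 17.4, 27.4, 28.6, 12.4, 5.14, 20.7, 15.4 and 18.8 CPM in the same order. The KO level was the lower one in 8 of 8 classes. The centred ratio was -1.71 (-2.0 to -1.42) in mEC-like cells, from 453 WT and 132 KO UMIs, and -1.35 (-1.68 to -1.03) in CBC-like cells, and over all classes it lay between -1.74 and -1.03. Without centring the range was -2.12 to -1.11, and after the fit to transcript length -1.34 to -0.78, so that the direction held in 8 of 8 classes under each scaling while the 2-fold limit was not passed in all of them.

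Long transcripts as a group stood lower in KO, which bears on Cpt1a with its 7642 bases of exons. In mEC-like cells the median centred ratio of all genes fell from 0.54 in the quartile of shortest transcripts through 0.13 and -0.19 to -0.52 in that of the longest, and in CBC-like cells from 0.57 to -0.53. The quartile of the longest held 3 of the 33 members in mEC-like cells. The part of length in the result for Cpt1a was not tested beyond the fit. The ratio of Cpt1a to Cpt2 UMIs does not depend on the total of a class, though it keeps the difference in length, since exons of Cpt2 sum to 2391 bases. It was 0.562 (0.50 to 0.631) in WT and 0.146 (0.121 to 0.175) in KO mEC-like cells, and 1.49 and 0.657 in CBC-like cells. Over the classes it ran from 0.562 to 1.82 in WT and from 0.146 to 0.714 in KO, with the KO value lower in each class. The ratio of Etfa to Etfb, with 1835 and 1164 bases of exons, was lower in KO in each class as well, at 0.574 and 0.389 in mEC-like cells and 0.767 and 0.586 in CBC-like cells.

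Ppara went from 24.1 CPM in WT to 8.73 CPM in KO mEC-like cells, from 203 to 93 UMIs, and from 45.7 to 19.3 CPM in imEC-like cells. The levels were 10.2 and 5.91 CPM in CBC-like, 24.7 and 13.4 CPM in TAC-like, 1.94 and 1.42 CPM in PC-like and 10.1 and 8.5 CPM in GC-like cells, and in EEC-like (12.0 and 5.83 CPM) and TC-like cells (7.56 and 8.47 CPM) it had too few UMIs for a ratio. Its centred ratio was -1.05 (-1.42 to -0.69) in mEC-like and -0.46 (-1.10 to 0.17) in CBC-like cells, where the interval included 0. In mEC-like cells it stood just past the 2-fold limit, at -0.90 both without the mEC-like cluster led by Fabp6 and with the mean of per-cell CPM.

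Hadha and Hadhb encode the α and β subunits of the mitochondrial trifunctional protein, which carries out the later steps of the cycle for long chains, and they behaved unlike each other. Hadha had 306 CPM in WT and 137 CPM in KO mEC-like cells and 189 and 104 CPM in CBC-like cells. Hadhb had 118 and 106 CPM, and 77.8 and 81.4 CPM, in the same classes. Hadha was thus lower in KO and Hadhb close to level before centring. In the remaining classes Hadha had 208 and 108 CPM (TAC-like), 256 and 137 CPM (imEC-like), 28.3 and 23.2 CPM (PC-like), 122 and 86.3 CPM (GC-like), 138 and 102 CPM (EEC-like) and 183 and 99.7 CPM (TC-like). Its centred ratio lay between -0.92 and -0.20, was -0.75 (-0.85 to -0.66) in mEC-like and -0.53 (-0.68 to -0.39) in CBC-like cells, and never passed the 2-fold limit. It was below 0 in 8 of 8 classes with and without centring, and in 6 of 8 after the fit to transcript length. For Hadhb it was above 0 in 8 of 8 classes with centring and in 5 of 8 without it. After the fit to transcript length Hadhb was above 0 in 8 of 8 classes, from 0.33 to 1.02. Under that fit Hadha had -0.32 in mEC-like and -0.09 in CBC-like cells, and Hadhb 0.53 and 0.68. Without centring Hadha was past 2-fold lower in mEC-like cells, at -1.16.

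The ratio of Hadha to Hadhb UMIs, read within a matrix, lay between 1.62 and 3.02 over the WT classes and between 1.13 and 1.45 over the KO classes, so that the ranges did not overlap. In mEC-like cells it was 2.59 (2.41 to 2.79) against 1.29 (1.19 to 1.39). The closest pair was that of PC-like cells, at 1.62 (1.51 to 1.73) and 1.27 (1.16 to 1.39). Exons of Hadha sum to 8730 bases and those of Hadhb to 6595, Hadha overlaps Garem2, and neither the strand setting of the counting nor which isoforms were counted is given in the sources used here.

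**Figure D4:**
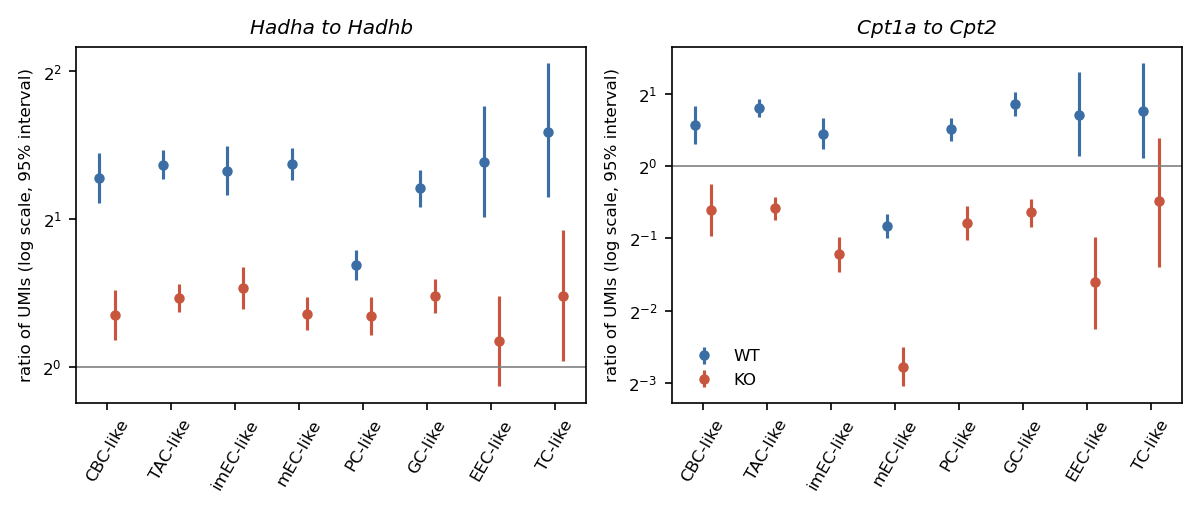
Ratio of UMIs of Hadha to Hadhb (left) and of Cpt1a to Cpt2 (right) on a log scale (vertical axis) in the 8 cell classes (horizontal axis), in the WT matrix (blue) and the KO matrix (red), with 95% counting intervals. For Hadha to Hadhb the WT points (1.62 to 3.02) lie above the KO points (1.13 to 1.45), and for Cpt1a to Cpt2 the KO point is the lower one in every class.

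Both genes start from 1 shared stretch of DNA, which is shown here for that reason. Hadha (chr5:30118304-30155162, minus strand) and Hadhb (chr5:30155248-30184593, plus strand) lie head to head with 85 bases between them at chr5:30155163-30155247, of which 69.4% are G or C. The stretch is printed below in the plus direction from the RefSeq promoter sequences of GRCm38.p6, with its 9 CpG pairs in capitals.
Hadha to Hadhb, between the genes: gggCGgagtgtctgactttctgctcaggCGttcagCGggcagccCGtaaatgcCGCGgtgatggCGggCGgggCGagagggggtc

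The sites that PPARα binds with its partner RXR are known as direct repeats of AGGTCA with 1 base between them, and were looked for in the promoters, 250 bases before to 50 after the gene start, of the 28 members found in the RefSeq sequences. Both strands were searched, and the 12 letters of the repeats were compared. An exact match occurred in 0 of the 28 members and in 0.0481% of 27025 promoters of all genes. With up to 2 mismatches 4 members (14.3%) and 4.40% of all promoters had a match. The 4 are printed with matching letters in capitals, in the plus direction, to show how far each departs from the repeat.
Plin2, chr4:86670272-86670284: AGGTCAggGGTCc
Cd36, chr5:17835947-17835959: AaGTCAgAGGcCA
Etfa, chr9:55512308-55512320: AGGgCAaAGGTaA
Slc25a20, chr9:108662142-108662154: AGGTgAaAGGTCg
Their centred KO to WT ratios in mEC-like cells were -0.16, -0.34, 0.28 and -0.13. Without centring and after the fit to transcript length all 4 were below 0, Etfa at -0.13 and -0.24. A match of letters is not a shown binding site.

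Angptl4, whose protein inhibits lipoprotein lipase and pancreatic lipase, was the member that stood highest in KO mature enterocytes. It had 8.42 CPM (71 UMIs) in WT and 25.6 CPM (273 UMIs) in KO mEC-like cells, a centred ratio of 2.02 (1.63 to 2.41). In every other class it was low in both matrices, between 0.633 and 4.22 CPM in WT and between 0.983 and 3.18 CPM in KO, with 4.07 and 2.40 CPM in CBC-like cells. The KO UMIs came from 193 of 1103 mEC-like cells, with at most 7 in 1 cell, so no single cell carried the value. Angptl4 lies at chr17:33773750-33781830 on the minus strand. Pdk4, a kinase that turns cells from glucose to fatty acid use, had 34 WT and 11 KO UMIs in mEC-like cells, too few for a ratio. It had 38 UMIs (0.512 CPM) in WT and 0 in KO PC-like cells, and 9 and 1 UMIs in TAC-like cells. EEC-like cells went the other way, with 2 WT and 6 KO UMIs.

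**Figure D5:**
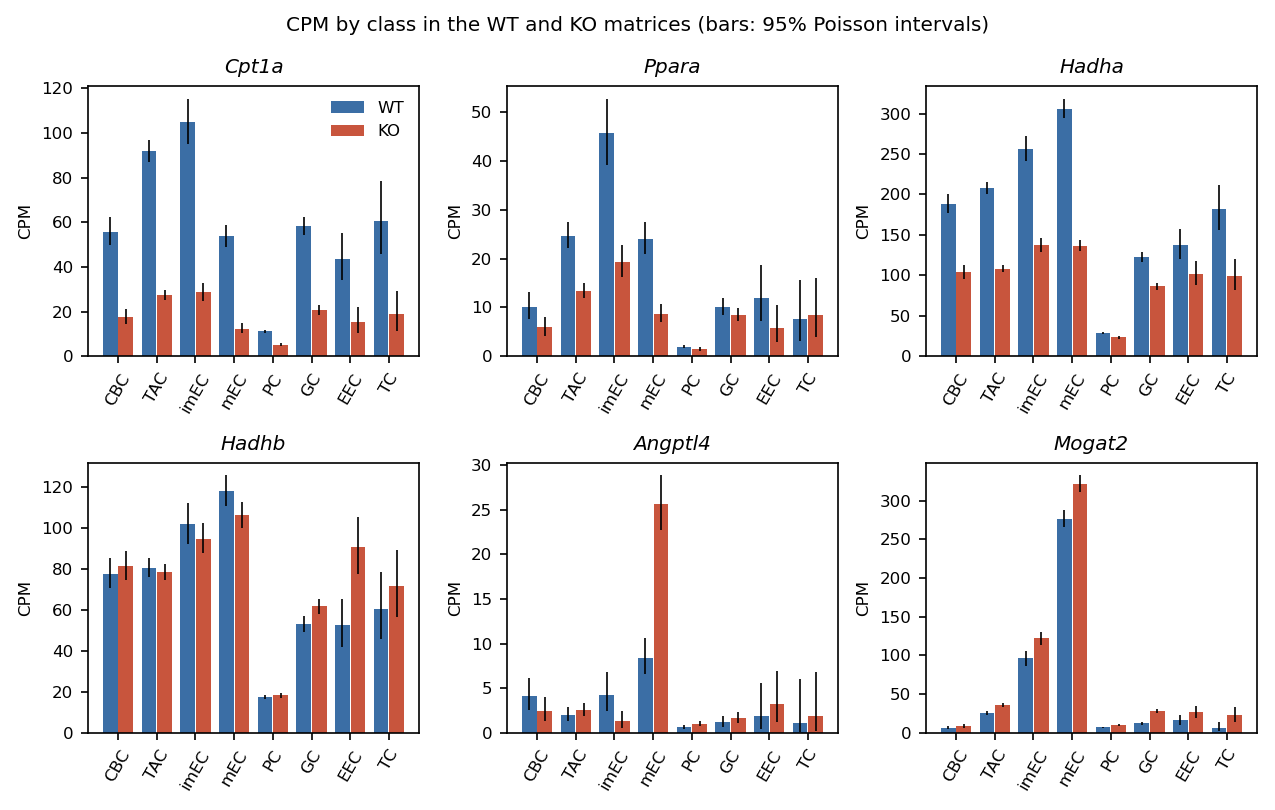
CPM (vertical axis, from 0) of Cpt1a, Ppara, Hadha, Hadhb, Angptl4 and Mogat2 in the 8 cell classes (horizontal axis, class names without -like), in the WT matrix (blue bars) and the KO matrix (red bars), with 95% Poisson intervals. The CPM of Cpt1a and Hadha is lower in KO in every class (for Hadha in 6 of 8 after the fit to transcript length), Angptl4 is higher in KO mEC-like cells at 25.6 against 8.42 CPM, and Mogat2 is concentrated in imEC-like and mEC-like cells of both matrices.

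Mature enterocytes of the 2 matrices also differed in genes that mark position along the small intestine. Of 8 genes of the distal intestine, such as the bile acid binding protein gene Fabp6, 8 were at least 2-fold higher in KO mEC-like cells, with a summed level of 4773 CPM in WT and 20194 CPM in KO, where 5.77% of all genes were higher and 6.84% lower. Of 9 proximal genes 2 were higher and 1 was lower, with sums of 22596 and 24436 CPM. The 3 mEC-like clusters were therefore read apart. The largest (1042 WT and 719 KO cells) had Angptl4 at 8.60 and 22.8 CPM, the smallest (84 WT and 205 KO cells, led by Fabp6) at 6.02 and 46.9 CPM, and the shallowest (461 WT and 179 KO cells) at 8.47 and 13.7 CPM, from too few UMIs for a ratio. Cpt1a was lower in KO in all 3 clusters, with centred ratios of -1.85, -2.03 and -1.44 in the same order, and Hadha had -0.77, -0.81 and -0.87. The part of position in the values for Angptl4 was not tested, and the largest cluster too had more Fabp6 in KO (852 and 4321 CPM).

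The storage genes lay mostly above 0 in KO after centring. In mEC-like cells their median was 0.57, with 5 of 7 ratios above 0 and none past 2-fold. The median was 0.16 without centring and 0.045 after the fit to transcript length, with 4 of 7 above 0 in each, and after that fit Mogat2 had 0.10 and Cideb 0.045. Mogat2 had 277 CPM in WT and 322 CPM in KO (0.63, 0.55 to 0.70), Cideb 216 and 255 CPM (0.65, 0.56 to 0.73), and Dgat1 539 and 601 CPM (0.57, 0.51 to 0.62). Dgat2 (87.0 and 64.5 CPM, -0.02) and Plin2 (85.7 and 57.9 CPM, -0.16) had lower CPM in KO. Cidec had 15.1 and 12.7 CPM (0.16, -0.20 to 0.52), an interval that included 0. The group of 7 was thus not of 1 direction in CPM.

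In CBC-like cells the storage genes that passed the 2-fold limit were Dgat2, with 3.70 and 6.07 CPM from 20 and 38 UMIs (1.04, 0.22 to 1.90), and Cideb, with 10.4 and 16.6 CPM (1.01, 0.52 to 1.5). Both stood at the limit, and neither was past it without centring. Mogat2 had 6.29 and 8.14 CPM there (0.70), and Dgat1 61.5 and 72.7 CPM (0.57). Dgat1 had a higher CPM in KO in 8 of 8 classes, with 132 and 136 CPM in TAC-like, 297 and 299 CPM in imEC-like, 27.2 and 38.9 CPM in PC-like, 77.9 and 105 CPM in GC-like, 78.6 and 86.9 CPM in EEC-like and 73.4 and 99.7 CPM in TC-like cells. Its centred ratio lay between 0.10 and 0.72, and after the fit to transcript length it was below 0 in 1 of 8 classes. Plin2 differed in sign between classes, from -0.16 in mEC-like to 0.83 in TC-like cells, with 55.5 and 49.5 CPM in CBC-like, 50.7 and 44.8 CPM in TAC-like, 82.2 and 64.6 CPM in imEC-like, 7.51 and 8.93 CPM in PC-like, 25 and 28.3 CPM in GC-like, 32.3 and 39.7 CPM in EEC-like and 27.0 and 49.9 CPM in TC-like cells.

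Mogat2 was the 1 storage gene past the limit in a secretory class, with 12.0 CPM in WT and 28.1 CPM in KO GC-like cells (1.52, 1.27 to 1.79). After the fit to transcript length this ratio was 0.94, under the limit. Apoa1 and Fabp6, known from enterocytes, were also higher there in KO, but mature enterocyte markers as a set were not. The 20 mature enterocyte markers summed to 973 CPM in WT and 963 CPM in KO GC-like cells, and to 357 and 392 CPM in PC-like cells. The 12 immature enterocyte markers summed to 4260 and 11925.5 CPM in GC-like cells. Apoa1 had 112 and 388 CPM and Fabp6 341 and 1729 CPM in GC-like cells, and 134 and 441 CPM and 155 and 535 CPM in PC-like cells. The part of free enterocyte RNA in the Mogat2 value was not tested. Mogat2 (chr7:99219084-99238619, minus strand) was above 0 in 7 of 7 classes with enough UMIs, with centring, without it and after the fit to transcript length, where it lay between 0.10 and 0.94.

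Eci1 and Etfb lay above 0 in every class. Eci1, the isomerase that moves double bonds of unsaturated chains, had 135 and 182 CPM in mEC-like cells (0.84, 0.73 to 0.95) and 105 and 148 CPM in CBC-like cells (0.82, 0.67 to 0.98). It passed 2-fold in PC-like (15.5 and 29.9 CPM, 1.03), GC-like (62.9 and 118 CPM, 1.21) and EEC-like cells (60.2 and 127 CPM, 1.03). After the fit to transcript length none of these 3 passed it (0.64, 0.70 and 0.54), and without centring the PC-like and GC-like ratios (0.94 and 0.91) did not either. Etfb, the β subunit of the flavoprotein that takes electrons from the dehydrogenases, had 278 and 376 CPM in mEC-like (0.85, 0.77 to 0.92) and 170 and 228 CPM in CBC-like cells (0.75, 0.63 to 0.87). Both had KO above WT in 8 of 8 classes under each of the 3 scalings, but for Etfb, whose exons sum to 1164 bases, the ratio after the fit to transcript length was 0.07 to 0.23 over the classes. The α subunit gene Etfa was above 0 in 8 of 8 classes with centring, and below 0 in 7 of 8 after the fit to transcript length.

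After centring no other oxidation gene passed 2-fold in mature enterocytes. The dehydrogenases had a median of 0.13, from -0.27 for Acadm (186 and 117 CPM) to 0.24 for Acads, but all 4 were below 0 without centring (median -0.28, -0.68 to -0.17) and after the fit to transcript length (median -0.28, -0.33 to -0.20). Acaa2, the thiolase that ends the cycle, had 310 CPM in WT and 177 CPM in KO mEC-like cells (-0.40, -0.48 to -0.31, and close to 2-fold lower after the fit to transcript length) but 124 and 133 CPM in CBC-like cells (0.43, 0.28 to 0.58). Acaa1b had 27.5 and 34.3 CPM in mEC-like cells (0.73, 0.48 to 0.97) and 4 and 1 UMIs in CBC-like cells. Among uptake genes, Slc27a2 had 45.8 and 21.5 CPM in mEC-like (-0.68, -0.92 to -0.44) and 42.8 and 26.3 CPM in CBC-like cells (-0.37, -0.67 to -0.08), and Cd36 had 23.5 and 14.0 CPM in mEC-like cells (-0.34, -0.65 to -0.02) and 7 and 1 UMIs in CBC-like cells. Slc27a4 and Acsl5, which had more UMIs, lay at 0.37 and 0.31 in mEC-like cells.

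Taken over all classes, 21 of the 34 genes had enough UMIs in each of the 8. Of these, 11 lay above 0 in all classes after centring and 2, Cpt1a and Hadha, lay below 0 in all. The share of all genes with the same sign in every class is not given here, and the classes came from the same matrices. These counts therefore only describe the members and do not set them apart from other genes. Of the 11, Eci1 and Etfb lay above 0 in all classes without centring and after the fit to transcript length as well, and the other 9 did not. Acsl3 and Slc25a20 lay below 0 in 7 of the 7 classes in which each could be read, under each scaling. The whole centred interval lay below 0 in 4 of these classes for Acsl3 and in 1 for Slc25a20. Among the 11 genes above 0, Eci2 stood at 0.00017 in EEC-like cells (-0.50 to 0.50).

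Other genes of fatty acid metabolism were listed by pathway and read the same way in mEC-like cells. After centring none of 9 nuclear receptors and partners was past 2-fold, and their median was -0.57. Without centring Ppargc1a (-1.27), Ppargc1b (-1.31) and Rxra (-1.02) were past 2-fold lower. Of 5 other genes of uptake and activation, Fabp2, the intestinal fatty acid binding protein gene, was higher in KO (7452 and 22332 CPM, 1.99), and Got2, an aspartate aminotransferase that also binds fatty acids at the membrane, was lower (45.8 and 16.2 CPM, -1.09). Among 9 other genes of triglyceride synthesis Agpat2, which makes phosphatidic acid, was higher (295 and 509 CPM, 1.20), with a median of 0.31. None of 4 lipolysis genes (median 0.34), 13 other mitochondrial (0.12), 15 peroxisomal (0.30) and 4 ketogenesis genes (0.06) was past the limit after centring. Without centring some were past it on the lower side, such as Acadsb (-1.23), Crot (-1.06) and Abcd3 (-1.10). In the omega oxidation list of 4, Cyp4b1, a cytochrome P450 (18.5 and 39.1 CPM, 1.49), and Vnn1, a pantetheinase (31.2 and 60.5 CPM, 1.36), were higher. Of 10 fatty acid synthesis genes Elovl1, an elongase of very long chains, was higher (60 and 121 CPM, 1.42), with a list median of -0.30. In all, 5 of 73 genes were higher and 1 was lower, beside the 5.77% and 6.84% of all genes. Without centring 3 of the 73 were higher and 14 lower.

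Along the absorptive axis in WT, 14 of 15 peroxisomal genes were at least 2-fold higher in mEC-like than in CBC-like cells. So were 4 of 4 genes of the omega oxidation list, which also holds the pantetheinase gene Vnn1. Of all genes 20.6% were higher and 20.9% lower. Of 13 other mitochondrial genes 3 were higher and 3 lower, and of 10 fatty acid synthesis genes 2 were higher and 4 lower.

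Markers of cells outside the epithelium were low in mEC-like cells, where 11 lymphocyte markers summed to 0.830 CPM in WT and 2.82 CPM in KO, 7 myeloid markers to 1.19 and 1.03 CPM, 7 stromal or endothelial markers to 0.711 and 0.188 CPM and 4 erythrocyte markers to 0.119 and 0 CPM. They were higher in the 2 smallest classes. In EEC-like cells the stromal or endothelial markers summed to 190 CPM in WT and 156 CPM in KO and the myeloid markers to 19.6 and 6.36 CPM, and in TC-like cells the lymphocyte markers summed to 47.5 and 7.53 CPM. These sums came from few genes of each list. Of the 7 stromal or endothelial genes, 4 in WT and 5 in KO had no UMI in EEC-like cells. Of the 11 lymphocyte genes, 10 had none in TC-like cells of either matrix. The part of such cells in the values of those classes was not tested.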

How the data were processed

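The authors deposited 1 matrix of raw UMI counts per genotype, made from 3-prime droplet libraries. The submitters' processing notes name Cell Ranger 2.1.1 and mm10, while the matrix header names version 4.0.0. Barcodes with at least 200 genes and at most 30% mitochondrial UMIs were kept. A doublet caller marked 1 WT and 0 KO cells and had therefore not worked, so doublets stayed in. Integration by canonical correlation used Seurat 5.3.0 under R 4.3.3, with 30 dimensions of 2000 variable genes that left out mitochondrial, member and pathway genes, and cells were clustered over 15 neighbours with leidenalg 0.10.2 and scanpy 1.11.5 at resolution 1. A cluster was named with at least 3 fixed markers among its 50 leading genes, so classes are rebuilt and may differ from those of the study. UMIs were summed per class, giving CPM with exact Poisson intervals and log2 ratios with exact conditional binomial intervals (scipy 1.17.1), centred on genes with at least 50 UMIs. With 1 matrix per group there was no test, and "higher" or "lower" as a count means 2-fold. Gene positions and exon lengths came from an annotation of GRCm38, which held 27722 of the 27998 identifiers (99.0%). Genes named in full were the 6 with the largest ratio in each direction in mEC-like cells, the 6 with the largest ratio of mEC-like to CBC-like cells in WT, and Ppara, Cpt1a, Hadha, Dgat1 and Plin2. The class ratios of Eci1, Etfb, Hadhb and Angptl4 beyond this were chosen after their values were seen. The 34 genes, the lists and the markers were chosen with earlier results of these data known. Alternatives tried were cell filters, clustering, UMI minimum and centring. Ratios were checked on Poisson counts simulated from an averaged mEC-like profile with known changes. The simulation held no differences between animals and no trend with transcript length, so it covers the calculation only. Antisense and overlapping genes cannot be told apart where the strand setting is not given, which touches Slc27a2, Acsl3, Acsl5, Mogat2, Cideb, Acadvl, Hadha, Etfb, Etfdh, Eci2 and Acaa1b. The values of 1 other pathway gene are not reported here.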

Additional observations from a re-analysis of the deposited data

Results flagged for a closer look

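Acaa2, the mitochondrial thiolase, had opposite directions in the stem and mature absorptive classes. Its centred KO to WT log2 ratio was 0.43 in CBC-like cells (124 CPM in WT, 133 CPM in KO) and -0.40 in mEC-like cells (310 and 177 CPM), and neither counting interval included 0. It was picked out because the 2 classes moved apart, and the difference between them was not tested, since each class of a genotype came from 1 matrix. After centring on a fit to transcript length its ratio was below 0 in 8 of 8 classes.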

How the results depend on the processing

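The signs of the 14 genes followed in mEC-like cells held under all 13 alternatives. The ranges were -2.12 to -1.34 for Cpt1a, -1.5 to -0.90 for Ppara, -1.16 to -0.32 for Hadha and 1.61 to 2.22 for Angptl4. These genes include the 6 lowest and 6 highest ratios of that class, picked from the same values. Their signs were therefore less open to change than those of members near 0. Of all 33 members read there, 21 lay above 0 with centring, 8 without it and 15 after the length fit. The median KO to WT ratio of the genes in mEC-like cells, 0.19, turned to -0.22 without centring, -0.17 after the fit to transcript length and -0.059 with each matrix clustered by itself, and that in CBC-like cells went to 0.0044 without centring. The count of 2 higher genes in CBC-like cells went to 0 with the 10% highest doublet scores removed, at 200 UMIs, after the length fit, at resolution 2, with the mean of per-cell CPM and without centring, and to 1 with a per-cell marker gate. The count of 1 lower gene there went to 3 at 1 UMI and 0 after the length fit. The count of 2 lower genes in mEC-like cells went to 1 with the mean of per-cell CPM or without the Fabp6 cluster, and to 4 without centring. The median ratio of mEC-like to CBC-like cells in KO, 1.56, went to 1.73 at 1 UMI, 1.37 at 200 UMIs, 1.22 with each matrix clustered by itself, 1.12 without centring and 1.38 with the unnamed clusters counted as mEC-like, and that in WT, 1.68, to 1.32 without centring. The count of 1 higher gene in mEC-like cells held under all 13, and the counts of genes higher in mEC-like than in CBC-like cells ran from 19 to 28 in WT and from 17 to 24 in KO. Leaving out the Fabp6 cluster and counting the unnamed clusters were chosen after seeing the data. Apart from the choice of genes, samples or scaling in each alternative, the cause of these shifts was not tested. No paired analysis was possible because each group came as 1 matrix. Genes under 50 UMIs in a class could not be read at this depth.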
